A study of Mus musculus with 4 samples.

Results

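T cell receptor variable segment genes are described here in P14 CD8+ T cells from mouse spleen. The members are the 241 gene rows whose symbols begin with Trav, Traj, Trbv, Trbd or Trbj, of 55401 gene rows in all: 130 Trav, 60 Traj, 35 Trbv, 2 Trbd and 14 Trbj genes. P14 cells carry a transgenic receptor specific for lymphocytic choriomeningitis virus (LCMV). One group of P14 cells carried a Hic1 overexpression vector (Hic1 is a transcriptional repressor with zinc fingers) and the other the empty vector, with 2 libraries each. All came from spleens of mice infected with LCMV Armstrong. For the time of collection the labels read day 32, whereas the text of the series speaks of 7 days. Each library came from about 1000 resorted cells. Mouse age and strain, and whether the replicates came from separate animals, are not stated in the labels. Counts of sex-linked genes, given below, bear on the animals. P-values measure the spread between these libraries.

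A developing T cell joins 1 V and 1 J segment for the alpha chain, and V, D and J segments for the beta chain, and splices the result to a constant region, so a clone carries few V genes and a mixed population carries many. A receptor transgene arrives already joined, and its early expression blocks most rearrangement of the endogenous beta locus, while the endogenous alpha locus is blocked less tightly. By flow cytometry names the P14 receptor is known as Vα2 and Vβ8.1, which correspond to the Trav14 family and to Trbv13-3.

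The V exons of those 2 gene families are shown because the counts below depend on telling near copies apart. All are from GENCODE M21 on GRCm38 (mm10), plus strand, 5′ to 3′ (for the Trav14 genes the last 300 bases of the exon), and in Trav14-1 and Trbv13-3 the capitals mark bases at which at least 1 of the copies listed under them differs. In the copies the capitals mark bases that differ from Trav14-1 or Trbv13-3 in a pairwise alignment. Gaps in an alignment carry no mark and are not counted as differences. The Trav14-3 exon has 309 bases, against 312 in Trav14-1, so its first printed bases do not line up with those of Trav14-1.
Trav14-1, chr14:53554259-53554558: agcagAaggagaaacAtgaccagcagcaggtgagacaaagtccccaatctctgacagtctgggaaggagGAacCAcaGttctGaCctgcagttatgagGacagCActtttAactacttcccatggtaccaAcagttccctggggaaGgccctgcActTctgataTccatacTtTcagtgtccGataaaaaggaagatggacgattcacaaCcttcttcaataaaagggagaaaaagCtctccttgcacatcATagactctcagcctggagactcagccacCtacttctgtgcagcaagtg
Trav14-2, chr14:53640926-53641225: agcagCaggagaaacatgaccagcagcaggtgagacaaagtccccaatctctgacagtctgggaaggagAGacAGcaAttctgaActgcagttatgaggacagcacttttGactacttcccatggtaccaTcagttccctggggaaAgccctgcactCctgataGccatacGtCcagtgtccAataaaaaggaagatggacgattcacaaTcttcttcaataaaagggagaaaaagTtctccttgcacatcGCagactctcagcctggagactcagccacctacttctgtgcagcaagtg
Trav14-3, chr14:53763395-53763694: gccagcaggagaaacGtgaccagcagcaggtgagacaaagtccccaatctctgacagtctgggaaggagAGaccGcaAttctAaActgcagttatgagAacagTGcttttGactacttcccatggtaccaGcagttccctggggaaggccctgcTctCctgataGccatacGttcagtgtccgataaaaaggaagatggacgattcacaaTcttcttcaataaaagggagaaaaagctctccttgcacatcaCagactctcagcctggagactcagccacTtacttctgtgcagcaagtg
Trbv13-3, chr6:41130292-41130585: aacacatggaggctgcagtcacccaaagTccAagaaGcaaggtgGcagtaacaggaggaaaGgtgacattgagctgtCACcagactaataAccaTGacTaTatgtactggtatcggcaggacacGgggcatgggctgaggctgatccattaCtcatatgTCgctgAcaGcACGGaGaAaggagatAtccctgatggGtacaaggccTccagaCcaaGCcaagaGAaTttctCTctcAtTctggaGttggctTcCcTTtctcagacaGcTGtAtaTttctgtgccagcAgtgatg
Trbv13-2, chr6:41121539-41121832: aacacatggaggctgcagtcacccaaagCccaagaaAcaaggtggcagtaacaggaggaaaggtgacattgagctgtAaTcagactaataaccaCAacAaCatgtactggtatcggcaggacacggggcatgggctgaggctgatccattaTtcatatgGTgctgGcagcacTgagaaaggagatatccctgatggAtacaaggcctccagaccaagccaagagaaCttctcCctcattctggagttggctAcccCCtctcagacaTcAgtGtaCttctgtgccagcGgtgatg
Trbv13-1, chr6:41116175-41116468: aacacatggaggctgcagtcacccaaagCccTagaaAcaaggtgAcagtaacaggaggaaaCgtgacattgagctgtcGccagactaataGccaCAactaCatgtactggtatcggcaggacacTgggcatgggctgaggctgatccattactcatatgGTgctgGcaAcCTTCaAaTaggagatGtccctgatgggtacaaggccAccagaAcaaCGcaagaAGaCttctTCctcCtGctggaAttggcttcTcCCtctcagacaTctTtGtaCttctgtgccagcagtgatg

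Trav14-2 and Trav14-3 were identical to Trav14-1 over 93.6% and 93.5% of aligned bases, with 20 differences each. Trbv13-2 and Trbv13-1 were identical to Trbv13-3 over 91.8% and 86.1%. Of the 350 distinct stretches of 50 bases in the Trav14-1 transcript, 333 occurred in no transcript of another T cell receptor gene, and for Trbv13-3 this held for 290 of 291. By contrast 41 of the 130 Trav genes had no stretch of their own, Trav14d-1 and Trav14n-1 among them, since the alpha locus of this genome holds duplicated copies. Counts of such genes are uncertain, because reads that match several genes equally may not have been counted. The length of 50 bases was chosen for illustration, as the read length is not given in the sources used here. How a read that spans a V to J junction was counted is not given either, so counts of a segment are not counts of complete receptor transcripts.

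The libraries held 7501285 and 8839317 counts with the Hic1 vector and 4017346 and 3941364 with the empty vector, so depth differed with the group. Hic1 itself had 314 and 161 counts with the Hic1 vector, against 3 and 5 with the empty vector. The segment genes together took 5315 and 6615 counts (0.0709% and 0.0748%) with the Hic1 vector, against 2948 and 2880 counts (0.0734% and 0.0731%) with the empty vector. The summed level of the 6 CD8 T cell markers (Cd3d, Cd3e, Cd3g, Cd247, Cd8a and Cd8b1) was 5170 and 5760 CPM (counts for every 1000000 of the scaled library total) with the Hic1 vector, against 4820 and 4990 CPM with the empty vector. Cd4 had 1 to 5 counts in every library. Of B cell markers, Ighm was called higher, at 237.9 and 197.1 CPM with the Hic1 vector, against 61.4 and 84.4 CPM with the empty vector, while Ms4a1 had at most 2 counts in each library. The part of such cells in the results below was not tested. In both groups the libraries numbered 1 had Xist counts of 3590 and 1885, and those numbered 2 had at most 3. Eif2s3y, a Y chromosome gene, had no count in those numbered 1, and 951 and 396 in those numbered 2. The 2 replicates of a group thus came from donors of different sex, and sex is mixed into the spread between them. In bulk samples fewer cells of a type and less RNA per cell cannot be told apart.

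A single gene, Trav14-1 (ENSMUSG00000076840.4, chromosome 14, positions 53554022 to 53554558, 2 exons), held most of the alpha chain V counts in every library. It had 2480 and 3175 counts with the Hic1 vector, against 1546 and 1231 with the empty vector. These were 89.1% and 91.8% of all Trav counts with the Hic1 vector (95% exact binomial intervals 87.9% to 90.3% and 90.9% to 92.7%), against 85.8% and 87.4% with the empty vector (84.1% to 87.4% and 85.5% to 89.1%). The 2 groups thus did not overlap, with the Hic1 vector libraries on the higher side. The mean was 90.5% ± 1.91 against 86.6% ± 1.08 (SD, n = 2 each), a difference of 3.86 percentage points. The difference was 3.27 points between the libraries numbered 1 and 4.45 points between those numbered 2. With the pseudogene Trav8-2 left out of the Trav counts, an alternative added after the data were seen, the mean difference was 2.04 points. Trav8-2 alone took 3.44% of the Trav counts in empty vector library 1, against 0.036% in Hic1 vector library 1, beside the 3.27 points between those libraries. In the libraries numbered 2 it took 0.85% with the empty vector, against 0.14% with the Hic1 vector. An exact two-sided permutation test gave p = 0.333, the smallest value that 2 libraries against 2 allow. The intervals cover counting error only, since PCR reads without molecular identifiers are not independent molecules.

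**Figure D1:**
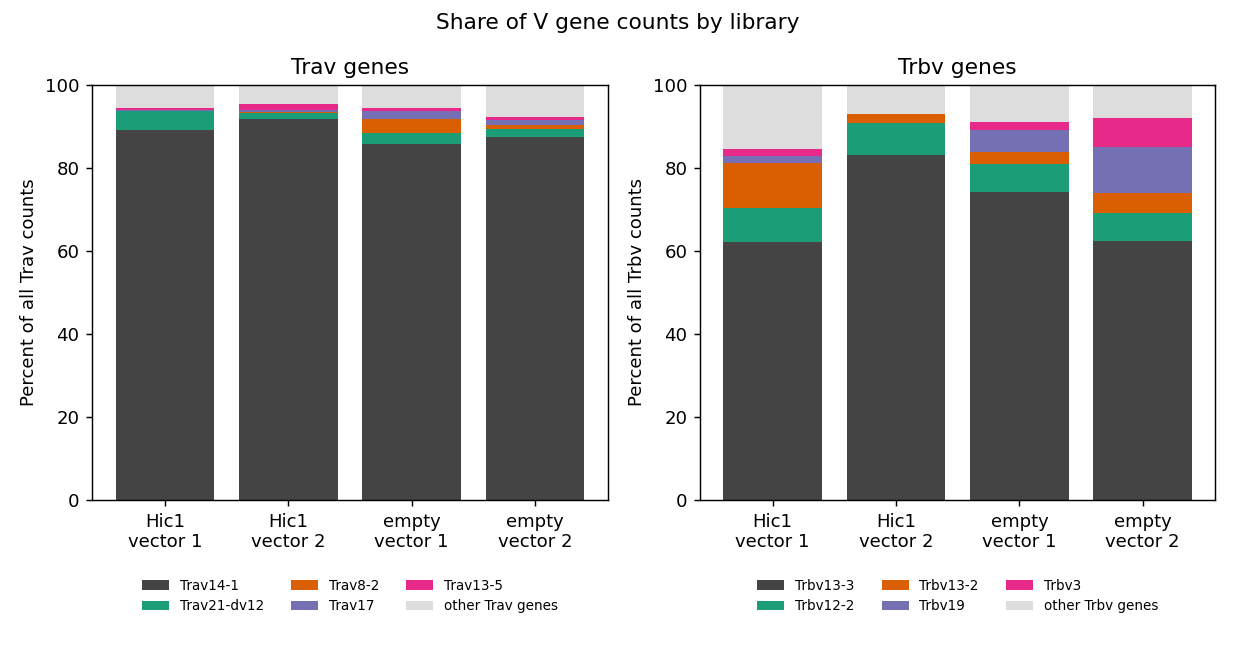
Percent of all Trav counts (left) and of all Trbv counts (right) in each of the 4 libraries, stacked for the 5 genes with the largest mean share and for the rest. Trav14-1 holds 85.8% to 91.8% of the Trav counts, and Trbv13-3 holds 62.2% to 83.0% of the Trbv counts, with a remainder that differs between libraries.

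The level of Trav14-1 itself gave no such separation. It was 349.2 and 361.8 CPM with the Hic1 vector, against 375.3 and 307.5 CPM with the empty vector, and the groups overlapped. The log2 fold change was 0.06 ± 0.141 (SE), with an adjusted p of 0.871 in edgeR's quasi-likelihood fit to the whole table. Without the scaling factors, by library sizes alone, the value was -0.02, so no direction is given. Per kilobase of exon Trav14-1 stood at 875.1 and 906.7 CPM with the Hic1 vector, against 940.5 and 770.8 CPM with the empty vector.

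Other Trav14 family genes were almost absent. Trav14-2 had 1 and 0 counts with the Hic1 vector, against 5 and 1 with the empty vector, and Trav14-3 had 2 and 4, against 4 and 0. Trav14d-3-dv8 had 0 and 3 counts with the Hic1 vector, against 1 and 2 with the empty vector. Trav14n-3 had 2 counts in Hic1 vector library 2 and none elsewhere, and Trav14d-1, Trav14d-2, Trav14n-1 and Trav14n-2 had none in any library. Those last 4 have no 50-base stretch of their own, so a count of 0 does not show that they were not transcribed.

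The remaining 303 and 283 Trav counts with the Hic1 vector, and 255 and 178 with the empty vector, were spread thinly over the alpha locus. Of 130 Trav genes, 51 had a count in any library. Of the 129 other than Trav14-1, the 16 genes within 500 kb upstream of the constant gene Trac held 68.3% of these counts, and the other 113 held 31.7%. The 74 genes of the duplicated D and N copies held 5.3%, though many of them cannot be told apart by sequence. The next most counted gene was Trav21-dv12, a V segment that alpha and delta chains can both use, at 129 and 52 counts with the Hic1 vector, against 45 and 30 with the empty vector. It took 4.64% and 1.5% of the Trav counts with the Hic1 vector, against 2.5% and 2.13% with the empty vector, so the groups overlapped. Trav13-5 followed at 15 and 50 counts with the Hic1 vector, against 15 and 10 with the empty vector.

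**Figure D2:**
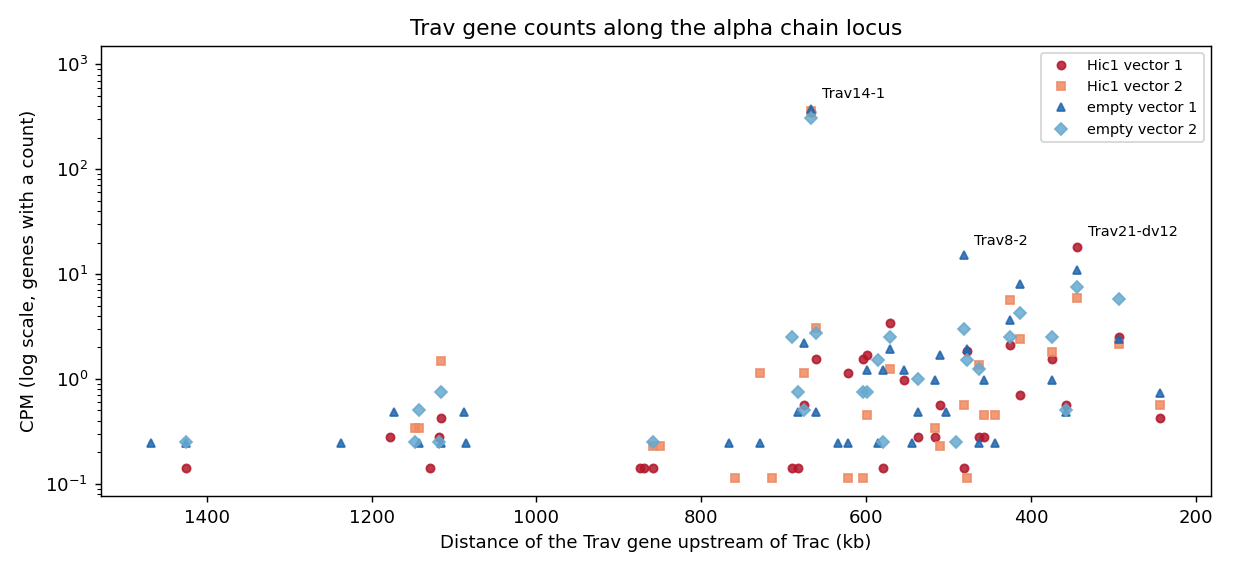
Level of each Trav gene with a count (CPM, log scale) against its distance upstream of Trac in kb, with 1 symbol per library. Trav14-1 stands alone above 300 CPM in all 4 libraries, and 68.3% of the other Trav counts lie within 500 kb of Trac.

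Of the 241 segment genes, 52 passed the low count filter and were tested, and 1 of them, Trav8-2, was lower with the Hic1 vector while none was higher. That is 1 of 52, where 1.82% of all 11676 genes tested were called (0.719% higher and 1.1% lower). Trav8-2, which the annotation lists as a V pseudogene, had 1 and 5 counts with the Hic1 vector, against 62 and 12 with the empty vector. Most of its counts therefore came from empty vector library 1, which held 80.2% of them after scaling for depth. Its log2 fold change was -3.74 ± 0.761 (SE), and edgeR gave an adjusted p of 0.0443. Without empty vector replicate 1 the log2 value was -2.30 (edgeR adjusted p = 0.469), and it also missed the threshold without Hic1 vector replicate 1 (0.0639) and without Hic1 vector replicate 2 (0.0504). Of its 288 stretches of 50 bases, 186 occur in no other receptor gene, and it shares most with Trav8n-2.

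Across the 52 tested segment genes 31 had a log2 fold change above 0 and 21 below 0, where 5946 of all 11676 genes tested lay above 0. The median of the 52 was 0.13, beside 0.01 over all genes tested. The 2 groups did not overlap for 21 of the 52 (12 higher and 9 lower), where 51.4% of all genes tested did not overlap. Besides Trav8-2 the furthest below 0 were Trbv19, at -2.70 ± 0.985 (SE), and Trav17, at -1.76 ± 0.611, with adjusted p of 0.195 and 0.15 by edgeR's quasi-likelihood test. Trav17 had 5 and 21 counts with the Hic1 vector, against 33 and 17 with the empty vector, which is 0.704 and 2.39 CPM against 8.01 and 4.25 CPM. The furthest above 0 were Trbj2-7, Trbv13-2 and Trbj2-1, described below with their chain.

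**Figure D3:**
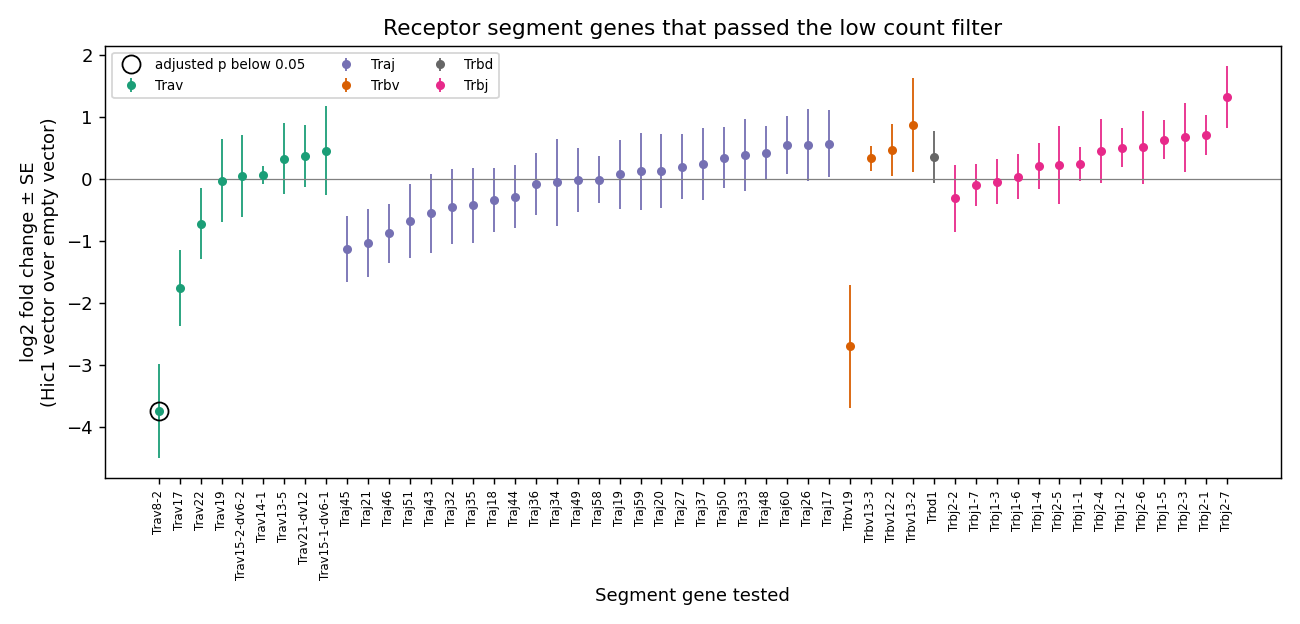
Log2 fold change with its SE (Hic1 vector over empty vector) for the 52 segment genes that passed the low count filter, ordered within Trav, Traj, Trbv, Trbd and Trbj. Trav8-2 alone is circled as called, and 31 of the 52 points lie above 0.

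Alpha chain joining segments showed no dominant gene. The Traj genes lie in a row over the stretch just upstream of Trac, and all 60 had a count. The 743 and 1038 Traj counts with the Hic1 vector, and 446 and 548 with the empty vector, were so evenly spread that the effective number of genes (the inverse of the summed squared shares) was 30.3 and 30.7 with the Hic1 vector, against 30.9 and 34.6 with the empty vector. For Trav genes the same measure was 1.26 and 1.19 with the Hic1 vector, against 1.35 and 1.31 with the empty vector. So while 1 V gene dominated, no J gene did.

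Traj58 ranked first with a mean share of 6.81% over the libraries. It had 54 and 70 counts with the Hic1 vector, against 37 and 27 with the empty vector, which is 7.27% and 6.74% of the Traj counts against 8.30% and 4.93%, and the groups overlapped. Traj48, Traj60, Traj59 and Traj46 followed at mean shares of 5.18%, 4.33%, 3.99% and 3.97%, and Traj60 is annotated as a pseudogene. Traj46 took 2.83% and 2.89% of the Traj counts with the Hic1 vector, against 5.61% and 4.56% with the empty vector, and its level did not pass the test. None of the 24 tested Traj genes passed. By edgeR none of these 24 had an unadjusted p below 0.05 either, where 19.1% of all genes tested did.

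**Figure D4:**
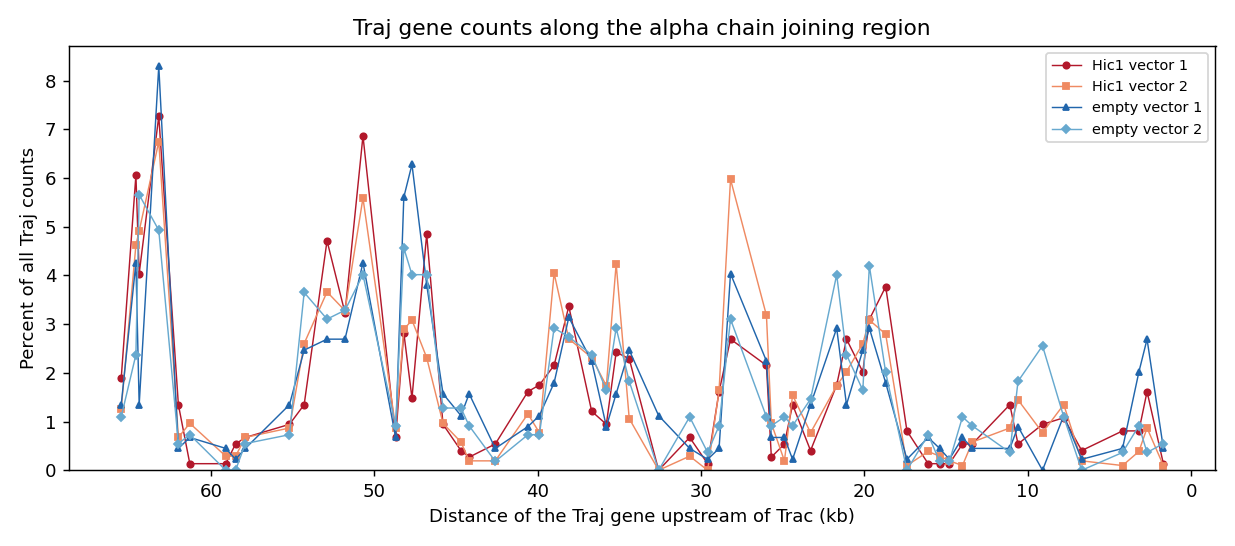
Share of all Traj counts (percent) held by each of the 60 Traj genes, against its distance upstream of Trac in kb, with 1 line per library. The 4 lines have peaks at many of the same genes, no gene exceeds 8.3%, and the 15 genes nearest to Trac hold 9.51% of the counts of all libraries pooled.

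The 15 Traj genes nearest to Trac had the fewest counts of the 4 successive sets of 15 in each of the 4 libraries. They had 74 and 80 counts with the Hic1 vector, against 49 and 61 with the empty vector. The first 15 from the 5′ end had 296 and 387 counts with the Hic1 vector, against 141 and 173 with the empty vector, and the next 15 had 201 and 293, against 154 and 176. The first 15 thus exceeded the next 15 in both Hic1 vector libraries and not in either empty vector library, a difference that was not tested. With the 4 libraries pooled, where the deeper Hic1 vector libraries weigh more, the last 15 held 9.51% of the Traj counts. Over the 60 genes the Pearson correlation of the shares between libraries was 0.731 to 0.852 across the 6 pairs, where the points share a gene order and segment lengths. Traj58 (chromosome 14, positions 54157280 to 54157342) is 63 bases long, which shows how little sequence such a segment offers to a read, as do the 2 beta D segments, which are shorter still.
Traj58, chr14:54157280-54157342: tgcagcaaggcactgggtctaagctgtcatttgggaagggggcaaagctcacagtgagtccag
Trbd1, chr6:41533201-41533212: gggacagggggc
Trbd2, chr6:41542163-41542176: gggactgggggggc
Trbj1-1, chr6:41533864-41533911: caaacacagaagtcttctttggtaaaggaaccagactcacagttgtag
Trbj2-7, chr6:41543810-41543856: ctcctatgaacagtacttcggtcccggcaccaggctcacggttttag

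The delta chain genes lie inside the alpha locus and also had counts. Trdv1, Trdv2-1 and Trdv2-2 lie among the Trav genes nearest to Trac, and the others lie between the Trav and Traj genes. Trdc, the delta constant gene, had 1384 and 2545 counts with the Hic1 vector, against 1512 and 1012 with the empty vector, which is 194.9 and 290.0 CPM against 367.0 and 252.8 CPM. Per kilobase of exon this was 50.4 and 75.0 CPM with the Hic1 vector, against 94.96 and 65.4 CPM with the empty vector, well under the per-kilobase level of Trac, at 652.8 and 862.1 CPM against 530.9 and 557.7 CPM. Trdv2-2, a delta V segment, had 139 and 325 counts with the Hic1 vector, against 123 and 118 with the empty vector. The log2 fold change of Trdc was -0.35 ± 0.227 (SE), which did not pass in edgeR (adjusted p = 0.445). Of 6 gamma delta T cell markers listed, 3 were found by symbol (Trdc, Trdv4 and Sox13). Their sum, mostly Trdc, was 205 and 298 CPM with the Hic1 vector, against 376 and 260 CPM with the empty vector. The other 3 are gamma constant genes whose rows bear other symbols (Trgc1, Trgc2 and Trgc4), so the sum leaves them out. Trgc2 was higher without overlap, at 7.18 and 5.47 CPM with the Hic1 vector, against 4.61 and 2.25 CPM with the empty vector. Trgc1 and Trgc4 had at most 10 counts in any library, and their groups overlapped. Exons of Trdc and Trdv2-2 overlap annotated genes on the opposite strand, and no strand setting is given in the sources used here, so reads from either strand cannot be told apart.

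Among beta chain V genes Trbv13-3 (chromosome 6, positions 41130147 to 41130585) led in every library, by less than Trav14-1 did and by an amount that varied. It had 442 and 655 counts with the Hic1 vector, against 198 and 243 with the empty vector. These were 62.2% and 83.0% of the Trbv counts with the Hic1 vector (95% exact binomial intervals 58.5% to 65.7% and 80.2% to 85.6%), against 74.2% and 62.5% with the empty vector (68.5% to 79.3% and 57.5% to 67.3%). The mean was 72.6% ± 14.7 against 68.3% ± 8.27 (SD, n = 2 each), and the groups overlapped. The difference was -12.0 points between the libraries numbered 1 and 20.6 points between those numbered 2, so the replicates went opposite ways, and an exact permutation test gave p = 1. Libraries of the same group differed by more than their counting intervals.

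The level of Trbv13-3 was 62.2 and 74.6 CPM with the Hic1 vector, against 48.1 and 60.7 CPM with the empty vector. The groups did not overlap and the Hic1 vector libraries were higher, which held for 26.5% of all genes tested. The log2 fold change was 0.33 ± 0.197 (SE), and edgeR's quasi-likelihood test gave an adjusted p of 0.395. Per kilobase of exon the gene stood at 183.0 and 219.5 CPM with the Hic1 vector, against 141.4 and 178.6 CPM with the empty vector, which is lower than Trav14-1 in each of the 4 libraries.

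Among the other Trbv genes with at least 20 counts in all, Trbv12-2 was the least concentrated in 1 library. The library with most of it held 31.3% of its depth-scaled counts. Trbv12-2 had 58 and 62 counts with the Hic1 vector, against 18 and 26 with the empty vector. That is 8.16% and 7.86% of the Trbv counts against 6.74% and 6.68%. Per kilobase of exon its level was 21.21 and 18.35 CPM with the Hic1 vector, against 11.35 and 16.87 CPM with the empty vector. The groups thus did not overlap in share or in level. For level, Hic1 vector libraries higher without overlap held for 26.5% of all genes tested. Its log2 fold change was 0.46 ± 0.419 and did not pass. Trbv13-2 had 78 and 17 counts with the Hic1 vector, against 8 and 19 with the empty vector, a log2 fold change of 0.87 ± 0.757 that became -0.68 without Hic1 vector replicate 1. Trbv19 had 12 and 0 counts with the Hic1 vector, against 14 and 43 with the empty vector. Trbv3 had 12 and 0 counts with the Hic1 vector, against 5 and 27 with the empty vector. Trbv19 passed without Hic1 vector replicate 1 (log2 value -4.38, adjusted p = 0.00565 by edgeR's quasi-likelihood test), where the single Hic1 vector library left has no count of it.

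Most minor beta chain V genes with at least 20 counts in all were counted mainly in a single library. Of the 11 Trbv genes with at least 20 counts in all, 9 had more than 50% of their depth-scaled counts in 1 library, and the exceptions were Trbv13-3 and Trbv12-2. Trbv17 had 24 of its 26 counts in Hic1 vector library 1, and Trbv31 had 23 of its 25 in Hic1 vector library 2. Trbv16 and Trbv15 had 24 and 31 counts in Hic1 vector library 1, against 4 and 1 in Hic1 vector library 2. All 18 counts of Trbv13-1 came from empty vector library 2. By the same measure 3 of 14 Trav genes, 1 of 41 Traj genes and none of 14 Trbj genes had more than 50% of their counts in 1 library. These genes were chosen by their totals, and no test was made of this pattern.

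The profile of the minor V genes was less alike between libraries than that of the Trbj genes, while its range met that of the Traj genes. Over the 22 Trbv genes with a count other than Trbv13-3, the Pearson correlation of the shares was 0.307 to 0.745 across the 6 pairs of libraries. Over the 50 such Trav genes other than Trav14-1 it was 0.519 to 0.764, over the 60 Traj genes 0.731 to 0.852, and over the 14 Trbj genes 0.912 to 0.976. The points of each profile share libraries and depth. When each library was thinned to 267 Trbv counts, 14 and 8 Trbv genes were detected with the Hic1 vector, against 15 and 13 with the empty vector. Hic1 vector library 2 had the fewest minor Trbv genes and the highest share of Trbv13-3.

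The beta D and J segments lie in 2 clusters, each followed by its own constant gene, Trbc1 or Trbc2. All 14 Trbj genes had a count and all were tested. The 7 genes of the first cluster held 718 of 995 and 949 of 1238 Trbj counts with the Hic1 vector (72.2% and 76.7%), against 315 of 410 and 403 of 495 with the empty vector (76.8% and 81.4%). Trbj1-1 led, with 183 and 292 counts with the Hic1 vector, against 83 and 119 with the empty vector, or 18.4% and 23.6% of the Trbj counts against 20.2% and 24.0%. Trbj1-2, Trbj1-5, Trbj1-7 and Trbj2-1 followed at mean shares of 11.8%, 10.4%, 10.3% and 8.83%. The effective number of Trbj genes was 9.94 and 8.26 with the Hic1 vector, against 9.38 and 8.08 with the empty vector.

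**Figure D5:**
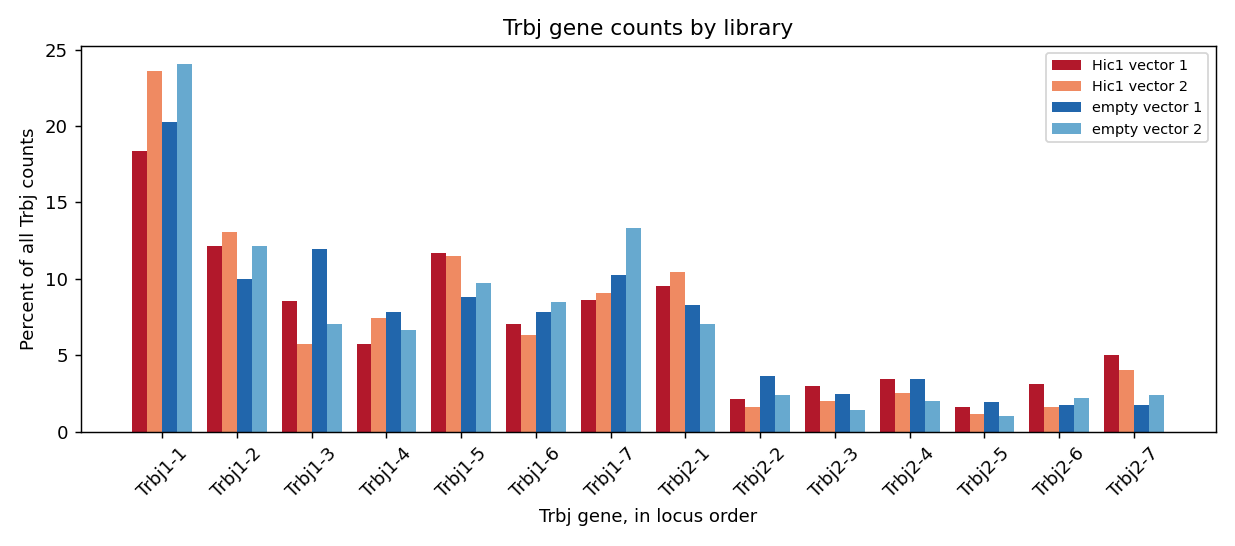
Share of all Trbj counts (percent) held by each of the 14 Trbj genes in locus order, with 1 bar per library. Trbj1-1 has the tallest bars in all 4 libraries, at 18.4% to 24.0%, and the genes from Trbj2-2 onward stay at or below 5.03%.

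None of the 14 Trbj genes passed the test. Of these, 11 had a log2 fold change above 0 and 3 below 0, where 5946 of all 11676 genes tested lay above 0. The median of the 14 was 0.35, beside 0.01 over all genes tested. The 14 are neighbours in 1 locus, so they are not independent of each other. Trbj2-7 had 50 and 50 counts with the Hic1 vector, against 7 and 12 with the empty vector, so the Hic1 vector libraries were the higher ones without overlap, and its log2 fold change was 1.32 ± 0.504 (SE, adjusted p = 0.182 by edgeR's quasi-likelihood test). Trbj2-1 had 95 and 129 counts with the Hic1 vector, against 34 and 35 with the empty vector, with a log2 fold change of 0.70 ± 0.327 (adjusted p = 0.269). The summed level of all Trbj genes was 140.1 and 141.1 CPM with the Hic1 vector, against 99.5 and 123.7 CPM with the empty vector, a mean log2 difference of 0.34 with an exact permutation p of 0.333. Trbd1 had 53 and 85 counts with the Hic1 vector, against 20 and 34 with the empty vector, a log2 fold change of 0.35 ± 0.413. Trbd2 had 30 and 7 counts with the Hic1 vector, against 4 and 5 with the empty vector, and did not pass the low count filter.

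Summed over each class, V gene levels of the alpha chain did not separate the groups. Trav genes summed to 391.8 and 394.0 CPM with the Hic1 vector, against 437.2 and 352.0 CPM with the empty vector. Traj genes summed to 104.6 and 118.3 CPM with the Hic1 vector, against 108.3 and 136.9 CPM with the empty vector. Trbv genes summed to 100.1 and 89.9 CPM with the Hic1 vector, against 64.8 and 97.2 CPM with the empty vector. Trbd genes summed to 11.7 and 10.5 CPM with the Hic1 vector, against 5.83 and 9.74 CPM with the empty vector. The groups overlapped for Trav, Traj and Trbv. As a share of all variable counts of a chain, the Trav14 family took 70.4% and 70.8% of the alpha counts with the Hic1 vector, against 69.3% and 63.1% with the empty vector. Trbv13-3 took 24.7% and 30.9% of the beta counts with the Hic1 vector, against 28.3% and 26.3% with the empty vector.

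Of the constant genes Trbc2 passed the test, and Trac and Trbc1 did not. Trbc2, the second beta constant gene, was at 560.8 and 587.9 CPM with the Hic1 vector, against 372.6 and 394.2 CPM with the empty vector. It rose by 0.58 ± 0.125 on the log2 scale (SE), with an edgeR adjusted p of 0.0444, and it missed the threshold by library sizes alone (0.51, adjusted p = 0.0768) and without empty vector replicate 1 (0.274), empty vector replicate 2 (0.0772) or Hic1 vector replicate 2 (0.131). Trbc1 was at 466.2 and 446.7 CPM with the Hic1 vector, against 345.9 and 353.3 CPM with the empty vector (0.38 ± 0.127, adjusted p = 0.132), and Trac was at 610.3 and 806.1 CPM, against 496.4 and 521.4 CPM (0.48 ± 0.146, adjusted p = 0.111). Trac passed with the replicate number as a block (log2 value 0.46, edgeR adjusted p = 0.0369) and without Hic1 vector replicate 1 (0.0276). Of the 8 genes of the receptor complex list (Cd3d, Cd3e, Cd3g, Cd247, Trat1, Trac, Trbc1 and Trbc2), 2 rose, Trbc2 and Trat1, and 6 did not pass, where 0.719% of all genes tested were called higher. The median log2 value of the 8 was 0.38, beside 0.01 over all genes tested. Trat1, a transmembrane adaptor of the receptor complex, had 94 and 184 counts with the Hic1 vector, against 15 and 5 with the empty vector. Its log2 fold change was 2.65 ± 0.471 (edgeR adjusted p = 0.0242, and 0.0592 without empty vector replicate 1).

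Set against its constant gene, a ratio that needs no scaling for depth and was chosen after the data were seen, Trav14-1 stood lower in both Hic1 vector libraries. Trav14-1 counts were 57.2% and 44.9% of the Trac counts with the Hic1 vector, against 75.6% and 59.0% with the empty vector, with no overlap between the groups. The mean log2 ratio was -0.98 ± 0.248 with the Hic1 vector, against -0.58 ± 0.253 with the empty vector (SD, n = 2 each). The difference was -0.40, close to -0.40 and -0.39 within the replicate numbers and -0.58 to -0.22 with any 1 library left out (-0.22 when that was Hic1 vector replicate 2 or the first empty vector replicate), and an exact two-sided permutation test gave p = 0.333. Trbv13-3 counts were 6.06% and 7.21% of the summed Trbc1 and Trbc2 counts with the Hic1 vector, against 6.69% and 8.12% with the empty vector, and the groups overlapped.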

How the data were processed

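Smart-seq2 libraries were made from 5 µl of lysate with 12 PCR cycles, after a sort of 5000 cells and a second sort of 1000, per the labels' protocols. The deposited raw table holds counts per gene as whole numbers, and the authors' normalized table was not used. The genome mm10 and the tools featureCounts 1.5.3, STAR 2.5.2b, DESeq2 1.3.2 and Trimmomatic 0.38 are named per the submitters' processing notes, with no role or option stated. All 241 members had the same versioned identifier in GENCODE M21, which gave positions, exon lengths and sequences.

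Genes were kept by filterByExpr (minimum count 10, minimum total 15) and tested over the whole table by group with edgeR 4.0.16 (TMM, robust quasi-likelihood F test, prior count 2, R 4.3.3). Calls used a Benjamini-Hochberg adjusted p below 0.05, CPM used TMM-scaled totals, and the SE is the log2 value divided by the square root of F. Shares were tested by exact permutation in scipy 1.17.1. Limma 3.58.1 voom and DESeq2 1.42.0 were alternatives. On simulated data with the same depths and 11676 genes, the fit called 98 of 100 genes altered 4-fold, 33 of 100 altered 2-fold and 5 unaltered genes. The simulation gave every gene the same dispersion (biological coefficient of variation 0.195). Its rates therefore need not hold for segment genes that vary more between libraries. The members and lists were chosen with earlier results of these data known. Named were the Trav14 genes and Trbv13-3, the 5 largest mean shares per class, Trbd genes, called members, the 3 largest and 3 smallest log2 values, and constant genes; Trbv genes counted mainly in 1 library and Trbv13-1 were named after their values were seen. Figures used matplotlib 3.10.9.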

Additional observations from a re-analysis of the deposited data

How the results depend on the processing

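The mean share of Trav14-1 stayed higher with the Hic1 vector under every alternative run. The difference was 2.04 points without Trav8-2 and 2.51 to 5.21 points with 1 library left out. For the whole Trav14 family these values were 1.83 and 2.23 to 5.09 points. Trav8-2 held 3.44% of the Trav counts in empty vector library 1. Without Trav8-2, little of the difference between the libraries numbered 1 was therefore left. Leave-one-out ranges were -6.15 to 14.7 points for the Trbv13-3 share, -1.29 to 2.08 for Traj58 and -3.75 to 1.44 for Trbj1-1. On the log2 scale they were -0.15 to 0.16 for summed Trav, -0.30 to 0.039 for Traj, -0.035 to 0.55 for Trbv, 0.18 to 0.93 for Trbd and 0.18 to 0.50 for Trbj, and for single genes -0.091 to 0.21 for Trav14-1, -0.21 to 0.20 for Traj58, -0.0058 to 0.53 for Trbj1-1, -0.60 to 0.95 for Trav21-dv12 and -0.68 to 1.61 for Trbv13-2. Directions turned when counts were thinned to the smallest class total for Traj58 (-0.56 points) and Trbj1-1 (1.71 points), by library sizes alone for summed Trav (-0.073) and Trav14-1 (-0.017), by RLE scaling for summed Trav (-0.0066), and without the low count filter for Traj58 (0.048). The cause was not tested.

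The count of called genes was 213, against 321 by library sizes alone, 819 without the low count filter, 794 with the replicate block, 433 by DESeq2 and 121 by limma voom, and 8 to 318 with 1 library left out, the lowest being without empty vector replicate 1. Called segment genes were 1, against 3 without the filter (Trav8-2, Trbv19 and Trbv13-1), 0 by DESeq2 (which gave no adjusted p for Trav8-2) and 0 by limma voom, and 0 to 1 with 1 library left out. By edgeR 4 of the 52 had an unadjusted p below 0.05, where 2232 of 11676 genes (19.1%) did. Limma voom gave Trav8-2 -4.20 (adjusted p = 0.128). Libraries with the same number, which also shared a sex by their Xist counts, deviated together over 11676 genes (correlation 0.239). The labels do not say that the numbers pair the samples. For most minor V genes, with counts in single or double digits per library, depth limits what can be seen.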

Other observations

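Genes of the gamma chain and of receptor assembly were also read. Trgc2, a gamma constant gene, had 51 and 48 counts with the Hic1 vector, against 19 and 9 with the empty vector, a log2 fold change of 0.82 ± 0.495 that did not pass edgeR's quasi-likelihood test (adjusted p = 0.403). Trgv2, a gamma V segment, had 21 and 15 counts with the Hic1 vector, against 2 and 4 with the empty vector, and was below the low count filter. Trgc1 had 3 and 2 counts with the Hic1 vector, against 2 and 1 with the empty vector, and Trgc3 had none in any library. The recombinase genes Rag1 and Rag2 had at most 1 count in each library. Dntt, which adds bases at V, D and J junctions, had 4 and 4 counts with the Hic1 vector, against 0 and 0 with the empty vector, and Ptcra, the pre-T cell receptor alpha chain, had 1 count in all.

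Trbv31, which lies downstream of the beta constant genes, and Trdv5, a delta V segment, are the minus-strand V genes of their loci. Trdv5 had 17 and 26 counts with the Hic1 vector, against 30 and 24 with the empty vector, a log2 fold change of -1.21 ± 0.479 which did not pass in edgeR (adjusted p = 0.2). Its exons overlap those of Trdc, so its counts are uncertain.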
